A study of Mus musculus with 8 samples.

Results

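Neutrophils taken from the inflamed spinal cord can carry along RNA of microglia and macrophages, and 10 marker genes of those cells were read in each library: P2ry12, Tmem119, Cx3cr1, C1qa, C1qb, C1qc, Csf1r, Adgre1, Mrc1 and F13a1. They were picked by name, as known markers, and found by their Ensembl identifiers among the 23369 genes of the count table. All 10 were present, and all 10 passed the filter on low counts that left 12610 genes for testing. Each gene was set against genes of neutrophils, against the other markers across libraries and between the time points, which bears on how pure the sort was at each time.

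The libraries came from C57BL/6N mice in which EAE (experimental autoimmune encephalomyelitis, in which T cells primed against myelin inflame brain and spinal cord) had been induced. Both groups shared that strain, that disease and the labelled batch 1, and no healthy or untreated mice were among the samples. Cells positive for CD45, CD11b and Ly6G were sorted from digested spinal cords at ZT13 (n = 4), early in the dark phase of a standard light cycle, and at ZT1 (n = 4), early in the light phase, where ZT counts hours from lights-on. Total RNA was amplified with a template-switching kit (SMART-Seq v4), which does not keep the strand, and the table holds raw counts per gene. Age, sex and day of disease are not given in the labels, nor is it said outright that each library is 1 mouse. P-values therefore measure the spread between these libraries, which may be partly technical.

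Microglia are the resident macrophages of brain and spinal cord, and in EAE they are joined by border macrophages and by macrophages that arise from blood monocytes. All of these carry CD45 and CD11b, as neutrophils do, so that within this gate Ly6G is the antigen that sets neutrophils apart. P2ry12, Tmem119 and Cx3cr1 mark microglia, although monocytes also carry Cx3cr1. C1qa, C1qb and C1qc encode the 3 chains of C1q, which starts the classical complement pathway and is made in the nervous system chiefly by microglia. Csf1r and Adgre1 (F4/80) mark mononuclear phagocytes in general, Mrc1 (CD206) marks border and tissue macrophages, and F13a1 marks monocytes and some macrophages.

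C1qa, C1qb and C1qc lie side by side on chromosome 4 of GRCm38, all on the minus strand. C1qa spans 136895917 to 136898803, C1qc 136889804 to 136893065 and C1qb 136880129 to 136886187, and the annotation lists all 10 markers as protein-coding genes. The stretches upstream of C1qb and C1qc are printed because these chains varied together across libraries (below, r = 0.90). Both come from the RefSeq promoter table of GRCm38.p6, which held 6 of the 10 genes, are written 5′ to 3′ on the minus strand and leave out annotated exons. Capitals mark GAGGAA, the core motif of PU.1 (the product of Spi1, the myeloid master regulator), or its reverse complement TTCCTC.
C1qb, chr4:136886201-136886450: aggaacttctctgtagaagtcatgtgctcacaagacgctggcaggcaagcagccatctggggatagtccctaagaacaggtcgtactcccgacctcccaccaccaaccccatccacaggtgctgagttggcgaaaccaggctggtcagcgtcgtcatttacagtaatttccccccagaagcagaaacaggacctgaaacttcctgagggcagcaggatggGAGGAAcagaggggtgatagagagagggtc
C1qc, chr4:136893066-136893164: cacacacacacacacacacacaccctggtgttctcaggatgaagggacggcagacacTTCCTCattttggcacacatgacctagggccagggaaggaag
Each stretch held 1 copy of the motif on either strand. The motif stood in 23.3% of all 32851 promoter windows cut to the length of the C1qb stretch (250 bases) and in 9.91% of those cut to the length of the C1qc stretch (99 bases), so that a match is common and describes the letters only.

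The 3 microglial surface receptors were detected in all 8 libraries at low levels, with groups that overlapped for each. P2ry12, the ADP receptor by which microglia sense injury, had 22.1, 30.1, 10.1 and 14.4 CPM (the count scaled to library size with TMM factors) in ZT13 replicates 1 to 4, against 13.8, 17.9, 21.2 and 18.2 CPM in ZT1 replicates 1 to 4. The highest and the lowest library were both ZT13 libraries, replicates 2 and 3. Tmem119, a membrane protein that marks resident microglia, had 11.3, 12.3, 10.4 and 7.03 CPM in the ZT13 libraries, against 4.73, 6.23, 10.4 and 1.57 CPM in the ZT1 libraries. Of the ZT1 libraries only replicate 3 lay within the range of the ZT13 libraries. Cx3cr1, the fractalkine receptor, had 28.0, 34.4, 14.2 and 12.3 CPM in the ZT13 libraries, against 19.6, 21.9, 39.3 and 41.5 CPM in the ZT1 libraries. ZT1 replicates 3 and 4 were the highest here and ZT13 replicates 3 and 4 the lowest.

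The C1q chains were about as low as the microglial receptors and also spread widely. C1qa had 9.20, 8.75, 7.30 and 5.01 CPM in the ZT13 libraries, against 1.23, 5.33, 11.6 and 2.03 CPM in the ZT1 libraries. C1qb had 19.1, 39.7, 11.9 and 5.91 CPM in the ZT13 libraries, against 9.16, 19.6, 37.1 and 7.79 CPM in the ZT1 libraries. C1qc had 13.3, 19.6, 7.06 and 6.33 CPM in the ZT13 libraries, against 3.79, 8.14, 22.7 and 4.46 CPM in the ZT1 libraries. In all 3 chains ZT1 replicate 3 exceeded the other ZT1 libraries, ZT1 replicates 1 and 4 were low, and ZT13 replicate 4 was the lowest ZT13 library. Summed over the chains the level ran between 17.3 and 68.1 CPM at ZT13 and between 14.2 and 71.4 CPM at ZT1, so that each time point spanned nearly the whole range.

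**Figure D1:**
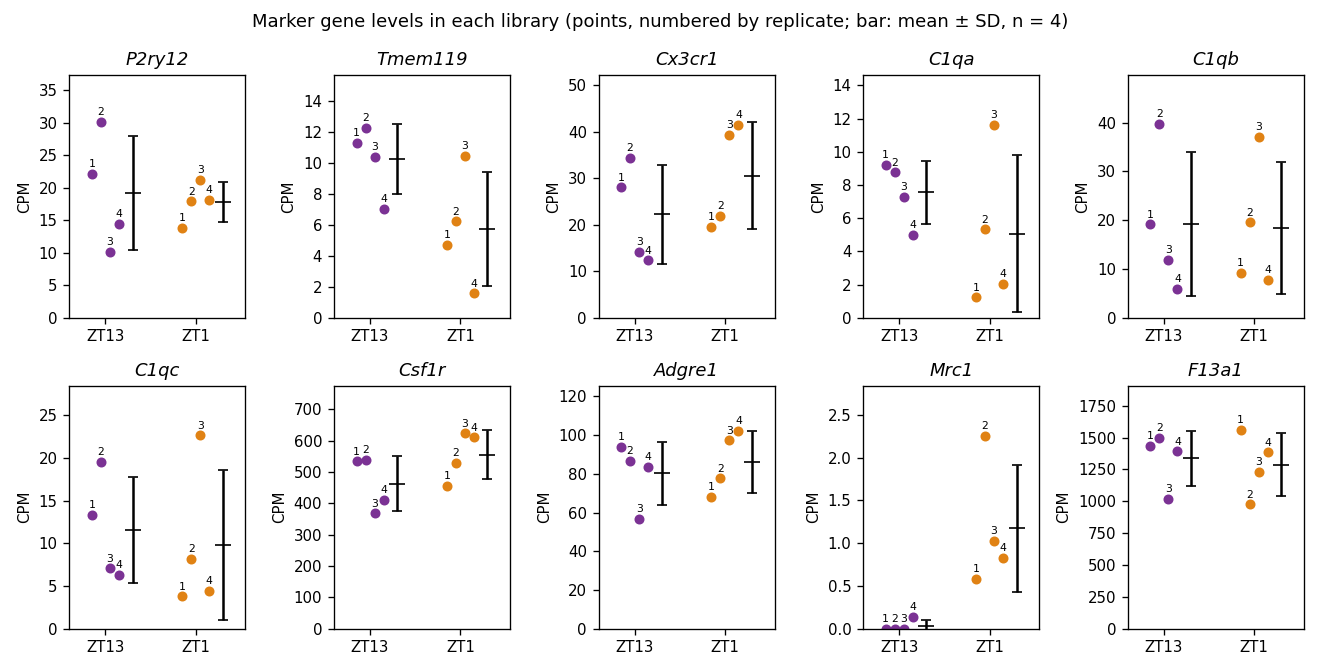
CPM of each marker gene (vertical axes, linear and starting at 0) in the 4 ZT13 libraries and the 4 ZT1 libraries, 1 point per library numbered by replicate, with the mean ± SD of each group as a bar. The groups overlap for 9 of the 10 genes, and Mrc1 is at 0 in 3 of the 4 ZT13 libraries.

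The general mononuclear phagocyte receptors were far higher and steadier. Csf1r, the receptor for CSF1 and IL-34 on which microglia and macrophages depend for survival, had 534, 538, 368 and 411 CPM in the ZT13 libraries, against 455, 528, 623 and 611 CPM in the ZT1 libraries. Adgre1, which encodes the adhesion receptor F4/80, had 93.9, 86.7, 56.6 and 83.7 CPM in the ZT13 libraries, against 68.0, 77.7, 97.3 and 102 CPM in the ZT1 libraries. Both were lowest in ZT13 replicate 3 and highest in ZT1 replicates 3 and 4. F13a1, the A subunit of coagulation factor XIII, which crosslinks fibrin, was the most abundant marker, with 1434, 1500, 1021 and 1391 CPM in the ZT13 libraries, against 1561, 974, 1229 and 1383 CPM in the ZT1 libraries. Its 2 lowest libraries were one of each time point, ZT13 replicate 3 and ZT1 replicate 2.

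Mrc1, the macrophage mannose receptor, was the only marker near the detection limit. It had 0, 0, 0 and 6 counts in ZT13 replicates 1 to 4, against 36, 105, 61 and 60 counts in ZT1 replicates 1 to 4. On the CPM scale that is 0, 0, 0 and 0.135 at ZT13, against 0.585, 2.26, 1.02 and 0.828 at ZT1, and a count of 0 allows up to 0.0591, 0.0511 and 0.0603 CPM in the 3 ZT13 libraries concerned (3 counts, counting error only). The groups did not overlap, and Mrc1 passed the filter through its ZT1 libraries only.

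Across the 8 libraries the highest value was 1.60 times the lowest for F13a1, 1.70 times for Csf1r and 1.81 times for Adgre1. The same ratio was 2.98 for P2ry12, 3.37 for Cx3cr1, 5.99 for C1qc, 6.73 for C1qb, 7.80 for Tmem119 and 9.42 for C1qa. Among neutrophil genes it was 1.09 for Itgam (CD11b) and 1.94 for Ly6g, both of them sort markers, and 10.99 for Mpo, the azurophil granule gene of neutrophil precursors. The markers that many phagocytes share varied within the range of most neutrophil genes, and the C1q chains and Tmem119 varied more. Depth did not limit these 9 genes, as the lowest had 76 counts in its poorest library.

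Levels of different genes were compared per kilobase of exonic length. F13a1 averaged 198 ± 31.9 CPM per kb at ZT13 and 191 ± 36.9 at ZT1 (SD, n = 4 each), followed by Csf1r at 80.1 ± 14.99 at ZT13 and 96.0 ± 13.6 at ZT1 and by Adgre1 with means of 24.8 at ZT13 and 26.7 at ZT1. The ranges of these 3 genes over the 8 libraries did not overlap. C1qb followed with means of 17.6 CPM per kb at ZT13 and 16.9 at ZT1, and its range of 5.43 to 36.5 over the 8 libraries took in that of Adgre1 and much of that of the genes after it. P2ry12, C1qa, C1qc, Cx3cr1 and Tmem119, with group means between 2.48 and 7.54 CPM per kb, overlapped with one another, so that their order is not resolved by these libraries. Mrc1 averaged 0.00529 CPM per kb at ZT13 and 0.184 at ZT1 and was below every other marker in every library. C1qb exceeded C1qa and C1qc per kb in 8 of 8 libraries.

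**Figure D2:**
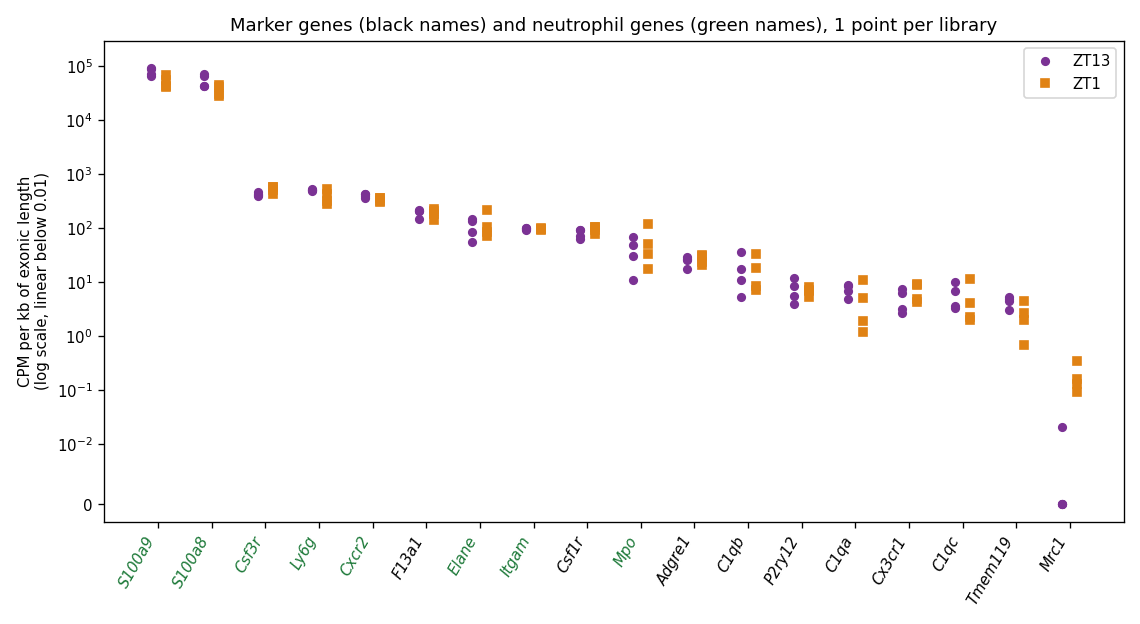
CPM per kb of exonic length (vertical axis, log scale that turns linear below 0.01) of the 10 marker genes and 8 neutrophil genes, ordered by mean, with ZT13 libraries left of ZT1 libraries and 1 point per library. F13a1 and Csf1r lie among the neutrophil genes Elane, Itgam and Mpo, while the microglial receptors and C1q chains lie near or below 10 CPM per kb apart from the higher C1qb libraries, and Mrc1 lies below 1.

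Relative to Itgam, F13a1 and Csf1r stood above all other markers in every library. Below them the markers did not form separate tiers, as C1qb, at 5.77 to 37.2% of Itgam, took in Adgre1, at 18.4 to 33.1%. Itgam averaged 97.2 CPM per kb at ZT13 and 96.0 at ZT1, and was the steadiest neutrophil gene of the list. Relative to it, F13a1 stood at 204 ± 29.9% at ZT13 and 199 ± 39.7% at ZT1, and Csf1r at 82.2 ± 13.1% at ZT13 and 100.4 ± 16.9% at ZT1 (SD, n = 4 each). Adgre1 averaged 25.4% of Itgam at ZT13 and 27.9% at ZT1, C1qb 17.9% at ZT13 and 17.9% at ZT1, and P2ry12 7.69% at ZT13 and 7.30% at ZT1. Tmem119 averaged 4.54% at ZT13 and 2.61% at ZT1, and Mrc1 0.00562% at ZT13 and 0.190% at ZT1. S100a8 and S100a9, the alarmins that fill the neutrophil cytosol, stood at 39080 ± 10940 and 41790 ± 6605 CPM at ZT13 and at 25200 ± 5855 and 27590 ± 6961 CPM at ZT1. Against S100a8 per kb no marker exceeded 0.823% in any library, the highest being F13a1 in ZT1 replicate 1. The 10 markers summed took 0.194 ± 0.0393% of all counts at ZT13 and 0.207 ± 0.0324% at ZT1, most of it F13a1 and Csf1r. The 3 microglial surface receptors together took between 0.00326% and 0.00774% of all counts at ZT13 and between 0.00415% and 0.00667% at ZT1. No library of sorted microglia or macrophages was analysed here, so these levels were not turned into a share of cells. In bulk libraries fewer cells of a type and less RNA per cell cannot be told apart.

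The choice of neutrophil gene decided how the time points compared. Per kb, the summed markers stood at 0.171 ± 0.0553% of the summed list of 18 neutrophil genes at ZT13 and at 0.242 ± 0.0517% at ZT1, with groups that overlapped. That list itself summed to 202900 ± 22750 CPM at ZT13 and 157900 ± 20220 CPM at ZT1, without overlap. Of its 18 genes 13 were higher and 5 lower at ZT13, with 0 called in edgeR and 1 in DESeq2, against 47.7% of all genes higher. Its per-kb sum rested mostly on S100a9, S100a8 and Ngp. These averaged 80050, 56320 and 36520 CPM per kb at ZT13, and 52860, 36310 and 28930 at ZT1. Csf1r and Adgre1 summed stood at 0.0512 ± 0.0162% of the neutrophil list at ZT13 and at 0.0826 ± 0.0173% at ZT1, without overlap, while as a share of all counts the pair stood at 0.0534 ± 0.0117% at ZT13 and 0.0652 ± 0.00855% at ZT1, with overlap. Relative to Ly6g alone, Csf1r stood at 15.5 ± 2.64% at ZT13 and 25.9 ± 8.10% at ZT1 and Adgre1 at 4.82 ± 0.985% at ZT13 and 7.25 ± 2.71% at ZT1, both without overlap, whereas relative to Itgam both overlapped. Ly6g had 485 ± 24.2 CPM at ZT13 and 369 ± 108 CPM at ZT1 (edgeR adjusted p = 0.548).

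Between the time points no marker passed edgeR's quasi-likelihood test at an adjusted p under 0.05. Of 12610 genes tested 0 passed (0.00%), with a smallest adjusted p of 0.246, so that 0 of 10 markers is the background rate. At an unadjusted p under 0.05 there was 1 marker, Mrc1, against 9.20% of all genes. Log2 fold changes of ZT13 over ZT1 were above 0 for 6 markers and below 0 for 4, against 47.7% of all genes above 0, and their median was 0.06 against -0.02 over all genes. The groups were without overlap for 1 of 10 markers, again Mrc1, lower at ZT13, against 5.66% of all genes, of which 2.66% were higher at ZT13 and 3.00% lower. Mrc1 passed the filter through its ZT1 libraries only, so that neither count bears on the markers as a set.

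Tmem119 had the largest positive value among the markers, with 10.2 ± 2.28 CPM at ZT13 and 5.74 ± 3.68 CPM at ZT1 (SD, n = 4 each). Its log2 fold change was 0.84 ± 0.48 (SE, 95% interval from -0.23 to 1.90, edgeR adjusted p = 0.651), and the exact two-sided permutation test gave p = 0.0857. Cx3cr1 averaged 22.2 ± 10.7 CPM at ZT13 and 30.6 ± 11.4 CPM at ZT1, a log2 fold change of -0.46 ± 0.37 (interval from -1.29 to 0.38). Csf1r averaged 463 ± 86.5 CPM at ZT13 and 554 ± 78.5 CPM at ZT1, a log2 fold change of -0.26 ± 0.15 (interval from -0.60 to 0.07). P2ry12 had a log2 fold change of 0.11 (interval from -0.59 to 0.81), Adgre1 of -0.11 (interval from -0.51 to 0.30) and F13a1 of 0.05 (interval from -0.31 to 0.41). For P2ry12, Adgre1, F13a1 and Csf1r the intervals left out both a doubling and a halving, that is a log2 fold change of 1 or -1. Those of C1qb at 0.06 (interval from -1.32 to 1.44) and C1qc at 0.25 (interval from -1.07 to 1.56) held both. That of C1qa at 0.58 (interval from -0.78 to 1.95) held a doubling only, as did that of Tmem119. That of Cx3cr1 held a halving only. For these 5 genes a difference of that size was not excluded in the directions named. Adjusted p-values of the 9 markers other than Mrc1 ran from 0.651 to 0.989 in edgeR.

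Mrc1 summed to 6 counts over the ZT13 libraries and 262 over the ZT1 libraries, and averaged 0.0337 ± 0.0674 CPM at ZT13 and 1.17 ± 0.744 CPM at ZT1. The log2 fold change in edgeR was -5.09 ± 1.48 (SE, interval from -8.39 to -1.79), a value that depends on the prior count since 3 libraries are at 0, with an adjusted p of 0.433. The exact two-sided permutation test gave p = 0.0286, the smallest that 4 against 4 libraries can give. DESeq2 called Mrc1 (adjusted p = 0.0378), 1 of the 10 markers, against 0.940% of all genes. Mrc1 passed the filter only through the group where it was higher, so that these p-values are not independent evidence of a difference. Fewer genes were detected at ZT13, between 13945 and 15751 per library, than at ZT1, between 15760 and 17701, so that detection and time point cannot be told apart for Mrc1. Other genes of tissue macrophages were low in both groups, which overlapped for each, and lay on either side. Siglec1 averaged 0.389 ± 0.763 CPM at ZT13 and 1.82 ± 0.853 CPM at ZT1 (log2 fold change -2.21, edgeR adjusted p = 0.737) and Ms4a7 1.01 CPM at ZT13 and 1.66 at ZT1. Lyve1 averaged 4.52 CPM at ZT13 and 2.92 at ZT1, Cd163 0.51 at ZT13 and 0.50 at ZT1, Pf4 0.30 at ZT13 and 0.06 at ZT1, and Folr2 was at 0 in 7 of 8 libraries. Arg1 (arginase 1), of the monocyte list, averaged 0.153 ± 0.305 CPM at ZT13 and 11.3 ± 12.7 CPM at ZT1, with 3 libraries at 0 and groups that overlapped (edgeR adjusted p = 0.431).

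The markers co-varied unevenly. Over the 45 pairs of markers the Pearson correlation of log2 CPM across the 8 libraries had a median of 0.38 and ran from -0.57 to 0.94, with 32 pairs positive and 13 negative. After adjustment over the 45 pairs 1 passed by Pearson's r, Cx3cr1 with Csf1r (r = 0.94, exact permutation p = 0.0005, adjusted p = 0.0212, with rho = 0.95 and p = 0.0011). Without the 2 libraries farthest from the median of Cx3cr1, ZT13 replicates 3 and 4, r was 0.90, and within groups it was 0.93 at ZT13 and 0.94 at ZT1. With each library left out in turn r stayed between 0.925 and 0.96, and the pair passed in 2 of the 8 cases. The adjusted p ran up to 0.170, without ZT13 replicate 1.

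Among the low genes the C1q chains had high mutual correlations. C1qb with C1qc gave r = 0.90 (exact permutation p = 0.0038, adjusted p = 0.0565, rho = 0.86, p = 0.0107), and C1qa with C1qc gave r = 0.88 (exact permutation p = 0.0031, adjusted p = 0.0565, rho = 0.95, p = 0.0011, adjusted p for rho 0.0257). Without the 2 farthest libraries r was 0.95 for C1qb with C1qc and 0.88 for C1qa with C1qc. C1qa with C1qb gave r = 0.69 over all libraries (exact permutation p = 0.0601, adjusted p = 0.208, rho = 0.74, p = 0.0458), but 0.88 within ZT13 and 0.96 within ZT1. Tmem119 varied with C1qa (r = 0.80, exact permutation p = 0.0203, adjusted p = 0.156, rho = 0.86, p = 0.0107). Its r with Csf1r was -0.26 and with Cx3cr1 -0.21, neither distinguishable from 0 (adjusted p = 0.758 and 0.803, exact permutation).

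P2ry12, Cx3cr1, Csf1r and Adgre1 had r between 0.74 and 0.94 for all 6 pairs among them. P2ry12 also varied with C1qb (r = 0.71, exact permutation p = 0.0494, adjusted p = 0.202, rho = 0.62, p = 0.115) and with C1qc (r = 0.695, exact permutation p = 0.0553, adjusted p = 0.208, rho = 0.69, p = 0.0694), so that the markers did not divide cleanly into sets. Within the 4 ZT13 libraries Cx3cr1 had r = 0.99 with C1qc and 0.83 with Tmem119, against 0.42 and -0.25 within the 4 ZT1 libraries. Csf1r with Adgre1 gave r = 0.85 (exact permutation p = 0.0080, adjusted p = 0.0898, rho = 0.88, p = 0.0072), and P2ry12 with Csf1r gave r = 0.77 (exact permutation p = 0.0255, adjusted p = 0.156, rho = 0.79, p = 0.0279). As deviations from the group means, P2ry12 with Csf1r gave r = 0.91 (exact permutation p = 0.0017, adjusted p = 0.0521) and none of the 45 pairs passed. F13a1, the most abundant marker, had r between -0.34 and 0.40 with the others over all 8 libraries. Within the 4 ZT13 libraries its r was 0.97 with Adgre1, 0.87 with P2ry12 and 0.06 with Tmem119. Within the 4 ZT1 libraries these values were -0.10, -0.54 and -0.40. The lowest r of all pairs was that of Tmem119 with Mrc1, at -0.57 (exact permutation adjusted p = 0.349). The libraries share their depth and amplification, so that pairs of low genes are not independent of one another.

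**Figure D3:**
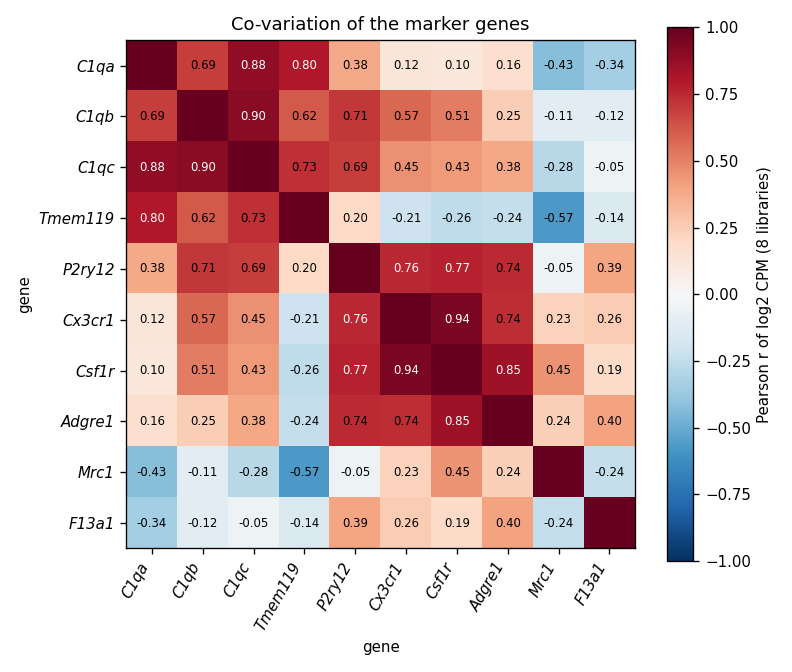
Pearson r of log2 CPM over the 8 libraries for each pair of marker genes (colour and printed value, from -1 to 1). The C1q chains with Tmem119 have r between 0.62 and 0.90, P2ry12, Cx3cr1, Csf1r and Adgre1 have r between 0.74 and 0.94, P2ry12 also reaches 0.71 with C1qb, and Mrc1 and F13a1 stay at or below 0.45 with all others.

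The library profiles show where these genes part. Averaged over the 3 chains, C1q stood at 3.74, 4.25, 3.09 and 2.53 log2 CPM in ZT13 replicates 1 to 4, against 1.83, 3.25, 4.42 and 2.06 in ZT1 replicates 1 to 4. ZT1 replicate 4 was the second lowest of the 8 libraries in C1q while it had the highest Cx3cr1 and Adgre1. In ZT1 replicate 3 C1q, Cx3cr1, Csf1r and Adgre1 were all high, and in ZT13 replicate 4 both C1q and Cx3cr1 were low. ZT13 replicate 3 stood apart from the other 7 libraries on the first principal component of all genes (25.8% of the variance), and it had the lowest P2ry12, Csf1r and Adgre1 and the fewest detected genes.

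**Figure D4:**
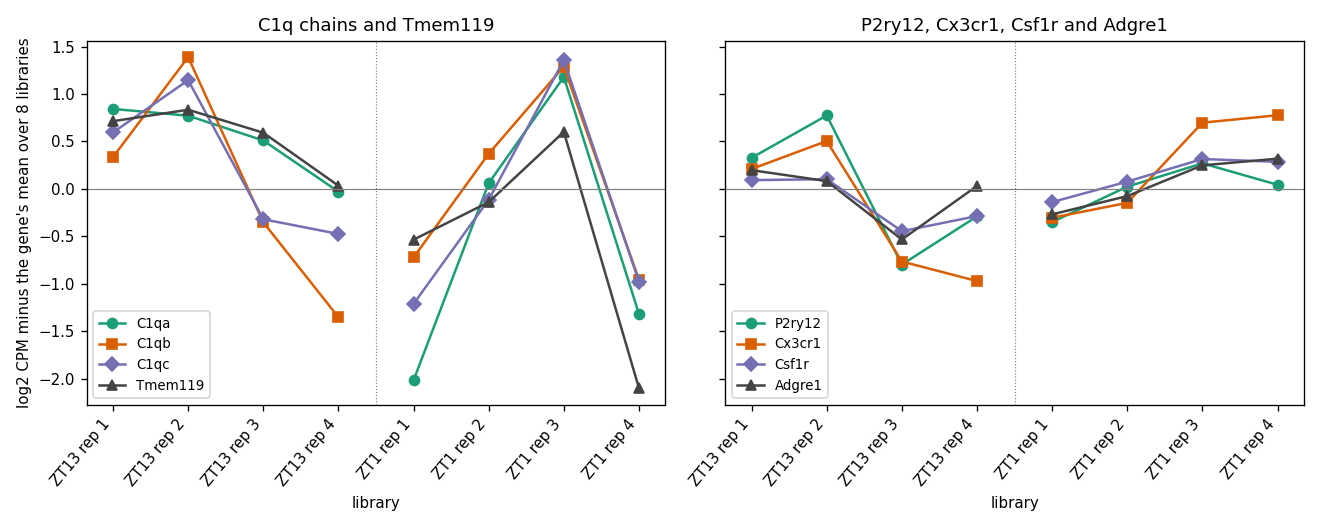
Log2 CPM of each gene minus its mean over the 8 libraries (vertical axis) by library, with ZT13 replicates left of ZT1 replicates and lines joining libraries of a time point only to guide the eye. The C1q chains and Tmem119 (left) go apart from Cx3cr1, Csf1r and Adgre1 (right) most in ZT1 replicate 4, which is low on the left and high for these 3 genes on the right. P2ry12 (right) is near its mean in that library.

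Of 80 relations between markers and 8 neutrophil genes across the libraries 1 passed, Tmem119 with Ly6g, and it was positive (r = 0.93, exact permutation p = 0.0004, adjusted p = 0.0337, with rho = 0.86, p = 0.0107 and adjusted p for rho 0.214). Without the 2 farthest libraries, ZT1 replicates 1 and 4, r was 0.90, and it was 0.80 within ZT13 and 0.91 within ZT1. C1qa with Ly6g gave a like r of 0.93 (exact permutation p = 0.0050, adjusted p = 0.198, rho = 0.90, p = 0.0046). The other microglial receptors gave no such value with Ly6g, with r = 0.20 for P2ry12 and -0.19 for Cx3cr1, and Csf1r gave -0.19 (exact permutation adjusted p = 0.865 for each). C1qc with Mpo gave the lowest r, -0.81 (exact permutation p = 0.0145, adjusted p = 0.283, rho = -0.90, p = 0.0046). Mpo and Elane, both made in neutrophil precursors, stood at 138 ± 86.1 and 105 ± 42.7 CPM at ZT13 and at 192 ± 156 and 119 ± 66.5 CPM at ZT1.

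Of 140 relations between the markers and 14 other microglial genes none passed by either coefficient. Among the highest was P2ry12 with its neighbour P2ry13 at r = 0.92 (exact permutation p = 0.0026, adjusted p = 0.0908, rho = 0.90, p = 0.0046). Without ZT13 replicates 2 and 3 this pair gave r = 0.71. P2ry13 had 73.0 ± 18.9 CPM at ZT13 and 65.6 ± 7.05 CPM at ZT1. None of the 10 markers passed against the number of detected genes. Mrc1 came closest (r = 0.76, exact permutation p = 0.0374, adjusted p = 0.374, rho = 0.76, p = 0.0414), but its r was -0.15 within ZT13 and 0.15 within ZT1, so that the relation did not hold within the time points.

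Outside the markers, 9519 genes with 2 or more CPM on average were ranked by their Pearson r over the 8 libraries with the mean log2 CPM of the 9 markers that had counts in every library. The 8 highest were Cd300c2, Abca1, Nmi, Tmem147, Yipf1, Ctss, Apobr and Notch2, with r between 0.93 and 0.95. Being the highest of 9519 over 8 libraries, these values describe the libraries and carry no test. Ctss, cathepsin S, which sheds fractalkine and is abundant in microglia, had 621 ± 164 CPM at ZT13 and 624 ± 173 CPM at ZT1. Abca1, a cholesterol exporter of macrophages, had 6.96 ± 4.01 CPM at ZT13 and 6.91 ± 5.09 CPM at ZT1. In the neutrophil list the r with the marker mean ran from -0.84 for Mpo to 0.69 for Ly6g.

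Further genes of microglia were present with the same unevenness. Whether reads of this list and of the lists that follow came from neutrophils or from other cells was not tested. Of 15 listed, 14 were tested and 0 passed, with 9 higher and 5 lower at ZT13 and a median log2 fold change of 0.16. Their sum ran between 722 and 1080 CPM at ZT13 and between 595 and 994 CPM at ZT1, most of it Cst3, the cystatin C gene, with 544 ± 80.3 CPM at ZT13 and 410 ± 141 CPM at ZT1 (edgeR adjusted p = 0.608). The most microglia-restricted genes were low. Siglech averaged 2.21 CPM at ZT13 and 2.93 at ZT1, Trem2, a lipid-sensing receptor, 17.7 at ZT13 and 14.8 at ZT1, and Sall1, the microglial identity factor, 0.0639 at ZT13 and 0.303 at ZT1, with 4 libraries at 0. Of 12 genes of disease-associated microglia 11 were tested and 0 passed, with 5 higher and 6 lower at ZT13, a median of -0.03 and sums between 2889 and 3062 CPM at ZT13 and between 2198 and 3810 CPM at ZT1. Their most abundant gene was Lgals3 (galectin-3), with 1498 ± 107 CPM at ZT13 and 1186 ± 251 CPM at ZT1, and the one with the smallest p was Spp1 (osteopontin), with 55.8 ± 26.1 CPM at ZT13 and 122 ± 63.9 CPM at ZT1 (log2 fold change -1.13, edgeR adjusted p = 0.491).

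Of 17 further macrophage genes 13 were tested and 0 passed in edgeR, with 8 higher and 5 lower at ZT13, a median of 0.06, and sums between 351 and 432 CPM at ZT13 and between 383 and 526 CPM at ZT1. Cd68, a lysosomal protein of phagocytes, was the most abundant, with 233 ± 30.7 CPM at ZT13 and 224 ± 37.8 CPM at ZT1. Msr1, the scavenger receptor A gene, had the smallest p, with 51.9 ± 6.06 CPM at ZT13 and 76.4 ± 11.1 CPM at ZT1 without overlap (log2 fold change -0.56 ± 0.14 SE, edgeR adjusted p = 0.347, DESeq2 adjusted p = 0.0261). Of 14 monocyte genes all 14 were tested and 0 passed in edgeR, with 5 higher and 9 lower at ZT13, a median of -0.10, and sums between 2688 and 3808 CPM at ZT13 and between 3077 and 4040 CPM at ZT1. Ly6c2, the surface antigen of inflammatory monocytes, was both the most abundant and the one with the smallest p, with 1166 ± 90.6 CPM at ZT13 and 835 ± 160 CPM at ZT1 without overlap (log2 fold change 0.48 ± 0.13 SE, edgeR adjusted p = 0.403, DESeq2 adjusted p = 0.0395). Ccr2, the chemokine receptor that brings those monocytes to the tissue, lay the other way, with 382 ± 91.2 CPM at ZT13 and 506 ± 50.0 CPM at ZT1 (edgeR adjusted p = 0.510).

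Genes of other immune cells gave a patchy picture. A gate on CD11b and Ly6G would remove most T, B and plasma cells. Dendritic cell genes (13 listed, 9 tested, 6 higher and 3 lower at ZT13, 0 called) summed to between 181 and 358 CPM at ZT13 and between 133 and 439 CPM at ZT1. Their most abundant gene was Cd74, the invariant chain of MHC class II, with 177 ± 47.7 CPM at ZT13 and 175 ± 99.6 CPM at ZT1, and the one with the smallest p was Ciita, the MHC class II transactivator (2.72 ± 1.49 CPM at ZT13 and 5.26 ± 3.21 CPM at ZT1, edgeR adjusted p = 0.638). Xcr1 and Clec9a, which define a dendritic subset, were at 0 in 7 of 8 libraries each. B and plasma cell genes (9 listed, 3 tested, 2 higher and 1 lower, 0 called) summed to between 154 and 194 CPM at ZT13 and between 136 and 249 CPM at ZT1, nearly all of it Ighm, with 167 ± 17.7 CPM at ZT13 and 190 ± 46.8 CPM at ZT1. Cd79b had 3.18 ± 1.04 CPM at ZT13 and 1.51 ± 0.456 CPM at ZT1 (edgeR adjusted p = 0.519), while Ebf1 was at 0 in all 8 libraries. T and NK cell genes (15 listed, 6 tested, 4 higher and 2 lower, 0 called in edgeR) summed to between 10.2 and 23.5 CPM at ZT13 and between 10.02 and 20.5 CPM at ZT1, led by Nkg7 with 8.81 CPM at ZT13 and 9.13 at ZT1. Prf1 (perforin) was at 0 in the 4 ZT13 libraries and averaged 0.391 ± 0.117 CPM at ZT1 (edgeR adjusted p = 0.256, DESeq2 adjusted p = 0.0492), and it passed the filter through its ZT1 libraries only. Eosinophil, basophil and mast cell genes (8 listed, 4 tested, 4 higher, 0 called) summed to between 44.9 and 56.2 CPM at ZT13 and between 38.2 and 57.1 CPM at ZT1, led by Kit with 28.6 CPM at ZT13 and 26.0 at ZT1.

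Of the listed oligodendrocyte genes Mbp, the myelin basic protein gene, was the most abundant, with 135 ± 38.0 CPM at ZT13 and 123 ± 21.7 CPM at ZT1. Whether its reads came from spinal cord tissue was not tested. Oligodendrocyte genes (10 listed, 4 tested, 3 higher and 1 lower, 0 called) summed to between 139 and 249 CPM at ZT13 and between 141 and 203 CPM at ZT1. Cnp, with the smallest p, had 30.9 CPM at ZT13 and 35.1 at ZT1 (edgeR adjusted p = 0.796). Cldn11, Sox10, Olig1 and Mal were at 0 in all 8 libraries. Astrocyte genes (8 listed, 2 tested, 2 lower, 0 called) summed to between 0.118 and 8.02 CPM at ZT13 and between 5.76 and 6.79 CPM at ZT1, most of it Gja1 with 2.48 CPM at ZT13 and 5.28 at ZT1 (edgeR adjusted p = 0.821). Neuronal genes summed to no more than 0.650 CPM in any library and none was tested. Endothelial and pericyte genes (10 listed, 4 tested, 1 higher and 3 lower, 0 called) summed to between 11.1 and 21.9 CPM at ZT13 and between 14.7 and 24.2 CPM at ZT1, led by Pecam1, which neutrophils also express, with 13.2 CPM at ZT13 and 13.6 at ZT1. Flt1, with the smallest p, had 1.38 CPM at ZT13 and 4.85 at ZT1 (edgeR adjusted p = 0.616), and Rgs5, the pericyte gene, was at 0 in all 8. Erythroid genes (7 listed, 3 tested, 3 higher, 0 called) summed to between 2.59 and 30.1 CPM at ZT13 and between 0.422 and 3.83 CPM at ZT1, led by Hbb-bs, whose reads may be split with a near-identical globin gene (edgeR adjusted p = 0.491).

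**Figure D5:**
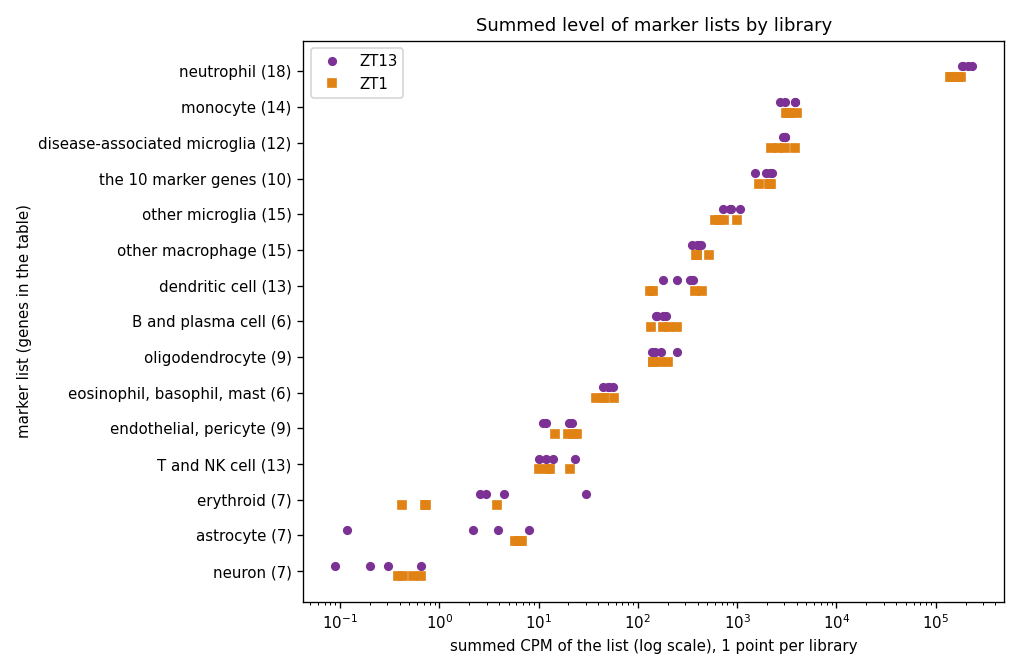
Summed CPM of each marker list (horizontal axis, log scale), 1 point per library, with ZT13 libraries above ZT1 libraries in each row and the number of genes in the count table in brackets. The 10 marker genes sum to between 1506 and 2270 CPM at ZT13 and between 1662 and 2172 CPM at ZT1, and the neutrophil list is the one whose time points do not overlap.

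The C1q chains, whose log2 fold changes were above 0 without passing the test, act with other complement proteins. Of 28 further complement genes and their receptors 18 were tested, of which 2 were higher and 16 lower at ZT13, with a median log2 fold change of -0.20 and 0 called, against 47.7% of all genes higher and a median of -0.02. C1ra, a protease that C1q activates, had 1.62 ± 0.850 CPM at ZT13 and 2.14 ± 0.481 CPM at ZT1, and its partners C1s1 and C1s2 were at 0 in 6 and 7 libraries. C3, on which the pathways converge, had 1238 ± 219 CPM at ZT13 and 1402 ± 71.9 CPM at ZT1, and C5ar1, the receptor for the attractant C5a, 1801 ± 214 CPM at ZT13 and 1864 ± 333 CPM at ZT1. Cfp (properdin), which stabilises the alternative convertase, had 493 ± 43.3 CPM at ZT13 and 477 ± 65.2 CPM at ZT1. Itgb2, the beta chain of complement receptor CR3, was the most abundant, with 2561 ± 139 CPM at ZT13 and 2567 ± 93.3 CPM at ZT1. Cfb (factor B) had the smallest p, with 0.682 ± 0.522 CPM at ZT13 and 1.92 ± 1.40 CPM at ZT1 (log2 fold change -1.49, edgeR adjusted p = 0.638).

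Ligands, processing enzymes and regulators of the markers were also more often lower than higher at ZT13. Of 28 listed, 23 were tested, 7 higher and 16 lower at ZT13, against 47.7% of all genes higher. Their median log2 fold change was -0.20, against -0.02 over all genes, and 0 were called. Of the ligands of Csf1r, Csf1 had 91.6 ± 21.04 CPM at ZT13 and 128 ± 54.0 CPM at ZT1 (edgeR adjusted p = 0.691), and Il34 was at 0 in all 8 libraries. Cx3cl1 (fractalkine), the ligand of Cx3cr1, was at 0 in 7 libraries. Adam10, which sheds it, had 146 ± 18.5 CPM at ZT13 and 192 ± 25.2 CPM at ZT1 (log2 fold change -0.40 ± 0.13 SE, edgeR adjusted p = 0.473), and Adam17 94.7 ± 21.3 CPM at ZT13 and 126 ± 10.1 CPM at ZT1. Spi1 (PU.1) had 1069 ± 47.4 CPM at ZT13 and 886 ± 107 CPM at ZT1 (edgeR adjusted p = 0.491), and Irf8 95.1 ± 17.8 CPM at ZT13 and 112 ± 13.6 CPM at ZT1. Gnai2, the inhibitory G protein subunit through which P2ry12 signals, was the most abundant, with 2016 ± 20.3 CPM at ZT13 and 1897 ± 148 CPM at ZT1. Tgm2, a transglutaminase related to F13a1, had the smallest p, with 57.3 ± 17.0 CPM at ZT13 and 129 ± 69.4 CPM at ZT1 (log2 fold change -1.18, edgeR adjusted p = 0.470).

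The counts do not keep the strand, so reads of overlapping genes on the other strand cannot be told apart from those of a marker. Csf1r shares 873 exonic bases (15.1% of its length) with Hmgxb3, which averaged 8.98 CPM. For Cx3cr1, F13a1 and P2ry12 the overlap with a gene on the other strand was 1.73%, 1.10% and 0.353% of the exonic length, and the other 6 markers had none.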

How the data were processed

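Raw gene counts of 8 libraries stood in 1 table that the authors deposited, with 23369 Ensembl identifiers. The submitters' processing notes name GRCm38 as the build and, as tools, STAR 2.7.10b, Subread 2.0.3, featureCounts, FastQC and DESeq2 1.46.0. Settings, annotation release and handling of multi-mapping reads were not given in the sources used here. Columns were assigned to samples by library name and 0 columns were left unused. Symbols, coordinates and union exonic lengths came from GENCODE M21, which matched 22231 identifiers, and the 1138 without a match held 0.121% of counts. The 10 markers and all gene lists were chosen with earlier results of these data known. Listed genes not in the table were not analysed here.

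Totals ran from 46152067 to 67873023 counts per library, so that a count of 0 allows (as 3 counts) up to 0.0414 to 0.0674 CPM, for counting error only. All pairs of libraries within a group differed beyond sampling noise. ZT13 was tested over ZT1 by robust quasi-likelihood F-tests of edgeR 4.0.16 (R 4.3.3) with TMM factors, after filterByExpr by group (minimum count 10, minimum total 15), and p-values were adjusted by Benjamini-Hochberg over all genes at a threshold of 0.05. DESeq2 1.42.0 and limma-voom (limma 3.58.1) on the same filtered genes were alternatives, beside other normalizations and filters, each library left out, and a replicate block. Log2 CPM for correlations used a prior count of 2. Single genes were also compared by the exact permutation test over the 70 assignments of 4 and 4 libraries, and correlations by exact permutation of pairings, adjusted within each family. The edgeR, DESeq2 and limma-voom fits were tested on simulated counts, with changes larger than those of every marker but Mrc1. Correlations and permutation tests were not run on simulated data. The text names all markers, 8 fixed neutrophil genes, the most abundant and the smallest-p gene of every other list, genes at 0 in all libraries and the 8 genes most like the marker mean. Other list genes were added after their values were seen, for their known roles. Some listed genes are not reported here.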

Additional observations from a re-analysis of the deposited data

Results flagged for a closer look

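In 20 groups of 4 libraries, 1 for each marker and time point, the highest and the lowest library were compared with the others by Dixon's criterion, which chance meets in about 1 group in 20. It was met once, by Mrc1 at ZT13, where replicate 4 had 0.135 CPM (6 counts) and the other 3 libraries had 0. With 3 libraries tied at 0 any count in the fourth meets the criterion. All 4 ZT1 libraries were higher, between 0.585 and 2.26 CPM.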

How the results depend on the processing

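Of 169 recomputed log2 fold changes of the markers, 158 kept direction and side of the threshold, 10 changed sign and 1 passed (Mrc1 in DESeq2). Tmem119, Cx3cr1, C1qa, Csf1r and Mrc1 kept their sign throughout. With each library left out in turn P2ry12 ran from -0.20 to 0.32, C1qb from -0.58 to 0.65, C1qc from -0.13 to 1.083, Adgre1 from -0.21 to 0.028 and F13a1 from -0.06 to 0.16, while C1qa ran from 0.26 to 1.40, Tmem119 from 0.52 to 1.29 and Cx3cr1 from -0.75 to -0.26. F13a1 stood at -0.011 with library totals. Sign changes came without ZT13 replicate 2 (P2ry12, C1qb, C1qc and F13a1), ZT13 replicate 3 (Adgre1), ZT1 replicate 1 (C1qb and C1qc), ZT1 replicate 2 (F13a1) and ZT1 replicate 4 (C1qb), and the cause was not tested. DESeq2 called 1 marker and 118 genes where edgeR called 0, and the cause was not tested. The filter at 5 CPM left Mrc1 untested. The log2 ratio of the summed markers to the neutrophil list, ZT13 over ZT1, was -0.50 (from -0.66 to -0.34 with libraries left out) and -0.076 with all counts as denominator. The sum of the neutrophil list was itself higher at ZT13. Without the 5 most abundant neutrophil genes the log2 ratio was -0.32. Without F13a1 and Csf1r, chosen after seeing the data, the log2 ratio was -0.33. The count of marker pairs that passed was 1, against 0 as deviations from group means, and between 0 and 5 with libraries left out (5 without ZT13 replicate 4, 2 without ZT13 replicate 3, otherwise 0). Libraries with the same replicate number did not deviate together, with correlations from -0.05 to 0.01 by title and from -0.03 to 0.02 by library name, so that the numbers pair nothing. A replicate block by either number called 0 markers and 0 genes. By library number it put C1qa at 1.81, Tmem119 at 1.63 and Cx3cr1 at -0.10. Only the library numbers 1, 2 and 4 occur at both time points. ZT13 replicate 4 and ZT1 replicate 3 are therefore alone in their blocks and add nothing to these values. With 4 libraries a group the intervals of the C1q chains, Tmem119 and Cx3cr1 took in a log2 fold change of 1, of -1 or both. Among the markers Mrc1 alone was near the detection limit, and the cause was not tested.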
